A study of Oryza sativa with 6 samples.

Results

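Aquaporins are channel proteins of the major intrinsic protein family, and 33 members of the rice family were looked up in leaf microarray data of a transgenic line. The members were taken from the PIP, TIP, NIP and SIP subfamilies by gene symbol or synonym in a platform annotation and the RefSeq gene table. Of the 33, 29 were found in the RefSeq table, and 25 had at least 1 probe set that the annotation gives to them alone. These 25 genes, of 17905 with such a probe set, carried 31 of the 57381 probe sets of the table. PIP2-3, TIP5-1, NIP1-2 and NIP3-3 had no such probe set, and TIP4-3, NIP1-3, NIP1-4 and NIP3-2 were not matched by name. A further 2 probe sets were assigned to a member together with another gene and were left out.

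The series set leaves of KMD, a transgenic rice line in the Xiushui 11 background, against leaves of its untransformed parent, the cultivar Xiushui 11 (XS11). Both lines were sampled as 30-day seedlings grown under the same protocol, with 3 arrays labelled as biological replicates in each line. Outside the labels, KMD is known as a Bt rice, with cry1Ab from Bacillus thuringiensis as its transgene, and it stands for 1 transformed line. The stated purpose was to look for unintended effects of the transformation. The labels do not say how many plants went into a sample, so p-values measure only the spread between these samples.

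PIP proteins sit mainly in the plasma membrane and TIP proteins in the membrane of the vacuole, where both let water move along osmotic gradients. Some TIPs also pass urea or ammonia. NIPs, related to nodulin 26 of legume nodules, include the channels through which rice takes up silicon and boron, and the small SIPs were found in the endoplasmic reticulum in Arabidopsis. In leaves, aquaporins serve water flow from the veins to the evaporating surfaces and the water relations of single cells.

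The values were deposited signals on a linear scale, and changes are KMD minus XS11 on the scale of log2(signal + 11.17). The added constant 11.17 is the 10th percentile over the whole table. This scale understates the change of dim probe sets. Each gene was read by its brightest probe set, and 23 of the 25 genes passed the filter on mean signal over both lines. Of these 23 genes, 18 fell in KMD, 1 rose and 4 did not pass the limma test at a Benjamini-Hochberg adjusted p of 0.05 over all tested probe sets. Among all 14790 tested genes read the same way, 33.0% fell and 23.2% rose. TIP2-1 and NIP3-1 passed the filter through their XS11 arrays alone, and without them 16 of 21 genes fell, 1 rose and 4 did not pass, with a median log2 fold change of -0.19. The median log2 fold change was -0.23 over the aquaporin genes and -0.03 over all tested genes. The 18 genes that fell were also those in which every KMD array read lower than every XS11 array, which held for 37.7% of all tested genes. Counted by probe set, 21 of 27 tested aquaporin probe sets fell and 1 rose, where 21.6% of all tested probe sets fell and 18.1% rose.

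Sizes ran over a wide range within the family. A fall of at least 0.5 on the log2 scale was called in 8 of the 23 genes, against 9.09% of all tested genes, and a fall of at least 1 in 3 of them, against 1.80%. The 8 genes were NIP1-1, TIP4-1, PIP2-5, PIP2-7, PIP2-4, PIP2-6, TIP1-1 and NIP2-1, so the PIP, TIP and NIP subfamilies each held some.

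**Figure D1:**
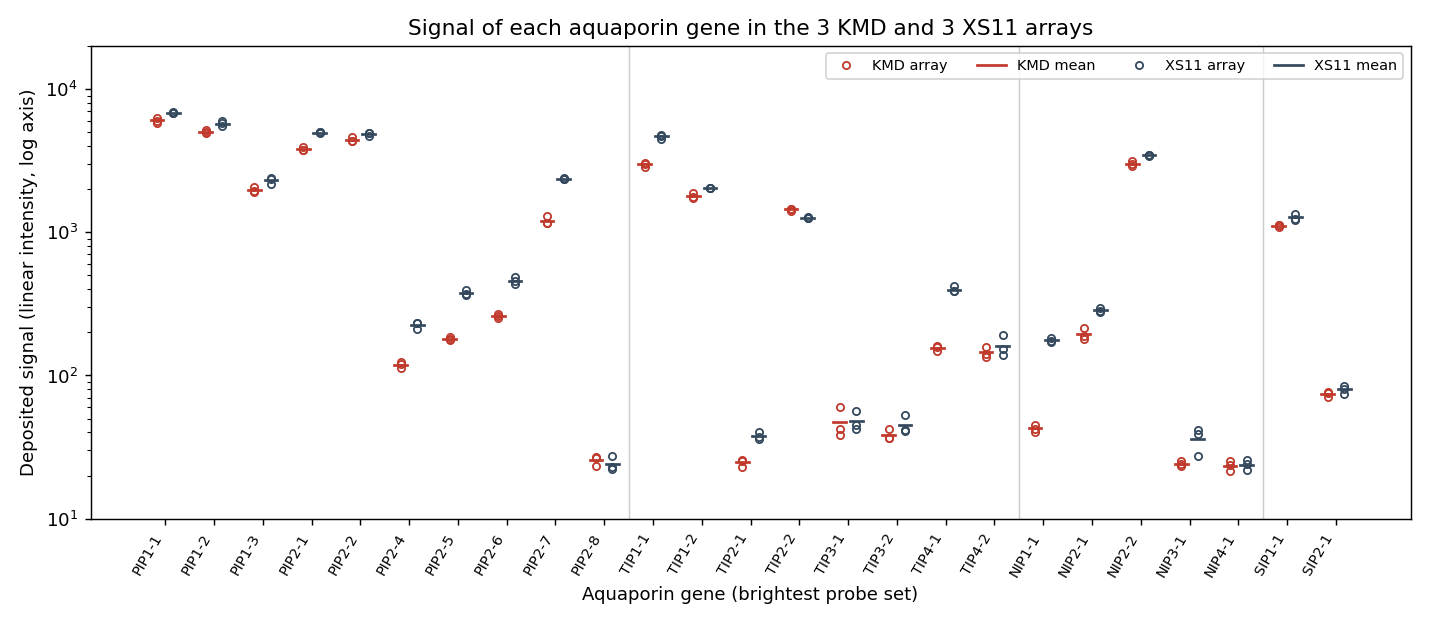
Deposited signal (log axis) of the brightest probe set of each of the 25 aquaporin genes, with a point for each array and a bar for the line's mean, KMD left of XS11. The lines stand apart most in NIP1-1, at 42.7 in KMD and 176 in XS11 on average, and TIP2-2 is the gene with KMD above XS11 in every array.

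All changes are relative to the level of each array. All 36 poly-A spike-in probe sets, for bacterial transcripts added before labelling, were higher in KMD, by 0.62 on the log2 scale on average. Centring on them moved the median of all 34404 tested probe sets to -0.62 and the calls to 32600 lower and 324 higher, where the values used here gave 7438 lower and 6222 higher. On that scale all 23 aquaporin genes were called lower. The ratio of 3' to 5' signal of actin, a sign of RNA integrity and labelling, ran from 5.64 to 5.91 in KMD and from 4.30 to 4.88 in XS11. For GAPDH it ran from 3.44 to 3.54 in KMD and from 2.61 to 2.99 in XS11. For ubiquitin it ran from 1.15 to 1.199 in KMD and from 0.96 to 1.01 in XS11, and cyclophilin went the other way, at 0.84 to 0.96 in KMD and 1.01 to 1.10 in XS11. The part of these shifts in the aquaporin values was not tested. In whole leaves, fewer cells of a type and less RNA per cell cannot be told apart.

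The PIP2 genes are the main water channels among the PIPs, and in KMD they split by size of change. PIP2-5, known in rice mainly from roots, read 180, 176 and 184 in the KMD arrays, against 398, 373 and 367 in the XS11 arrays. Its log2 fold change was -1.03 (SE 0.05, limma adjusted p = 2.53e-09). Its KMD mean was 47.5% of the XS11 mean, and the highest KMD array lay far under the lowest XS11 array.

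PIP2-7 read 1169, 1300 and 1155 in KMD, against 2372, 2388 and 2356 in XS11, a log2 fold change of -0.97 (SE 0.04). Its KMD mean was 50.9% of the XS11 mean. Of the 11 aquaporin genes with a probe set in the upper 5% of all signals, PIP2-7 and TIP1-1 were the 2 that fell by at least 0.5 on the log2 scale.

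PIP2-4 read 121, 125 and 112 in KMD, against 233, 234 and 212 in XS11, a log2 fold change of -0.86 (SE 0.06). PIP2-6 read 250, 259 and 270 in KMD, against 485, 434 and 460 in XS11, a log2 fold change of -0.80 (SE 0.05). In both genes the arrays of the lines were well separated, and the KMD means were 52.7% and 56.5% of the XS11 means.

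PIP2-1 and PIP2-2 fell by less. The brightest probe set of PIP2-1 read 3749, 3911 and 3780 in KMD, against 4897, 4983 and 4989 in XS11, a log2 fold change of -0.38 (SE 0.03). PIP2-2 averaged 4441 ± 173 in KMD and 4860 ± 132 in XS11 (SD, n = 3 each), a log2 fold change of -0.13 (SE 0.04). Its probe set is of the type s_at, which can take signal from related transcripts. The call of PIP2-2 (limma adjusted p = 0.010) was lost after quantile normalization (-0.07, adjusted p = 0.104) and when limma was run without the intensity trend (adjusted p = 0.094). It was also lost without KMD replicate 3 (-0.11, limma adjusted p = 0.052) or XS11 replicate 2 (-0.11, limma adjusted p = 0.054). PIP2-8 was too dim to be tested, with 25.6 in KMD and 24.2 in XS11 on average and arrays that overlapped.

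PIP2-4, PIP2-5 and PIP2-1 lie next to each other in the RefSeq gene order of assembly ASM3414082v1, with 1 pseudogene between PIP2-4 and PIP2-5 and none between PIP2-5 and PIP2-1. The 95% intervals of their log2 fold changes were -0.999 to -0.73 for PIP2-4, -1.14 to -0.92 for PIP2-5 and -0.44 to -0.31 for PIP2-1. Those of PIP2-4 and PIP2-5 overlapped, and that of PIP2-1 lay closer to 0 than both. The PIP2-1 value is from a probe set of the type x_at, which can take signal from related transcripts. Another x_at probe set, left out here, was assigned to both PIP2-1 and PIP2-5. The part of PIP2-5 signal in the PIP2-1 value was not tested. The dim PIP2-1 probe set of the type at gave 0.06.

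The PIP1 genes, whose products pass little water alone and form tetramers with PIP2 proteins, moved by small and similar amounts. PIP1-1, also listed as RWC1, averaged 6056 ± 239 in KMD and 6827 ± 46.6 in XS11 (SD, n = 3 each), a log2 fold change of -0.17 (SE 0.03). PIP1-2 stood at -0.19 (SE 0.04), with means of 5037 in KMD and 5738 in XS11. PIP1-3, listed as RWC3, stood at -0.23 (SE 0.04), with means of 1967 in KMD and 2303 in XS11. In each of the 3 genes every KMD array read lower than every XS11 array, as in 37.7% of all tested genes. None of the 3 passed limma's test against a change of 1.2-fold. Nor did PIP2-2, TIP1-2, TIP2-1, NIP2-2, NIP3-1 and SIP1-1, so 9 of the 18 falls passed that test.

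**Figure D2:**
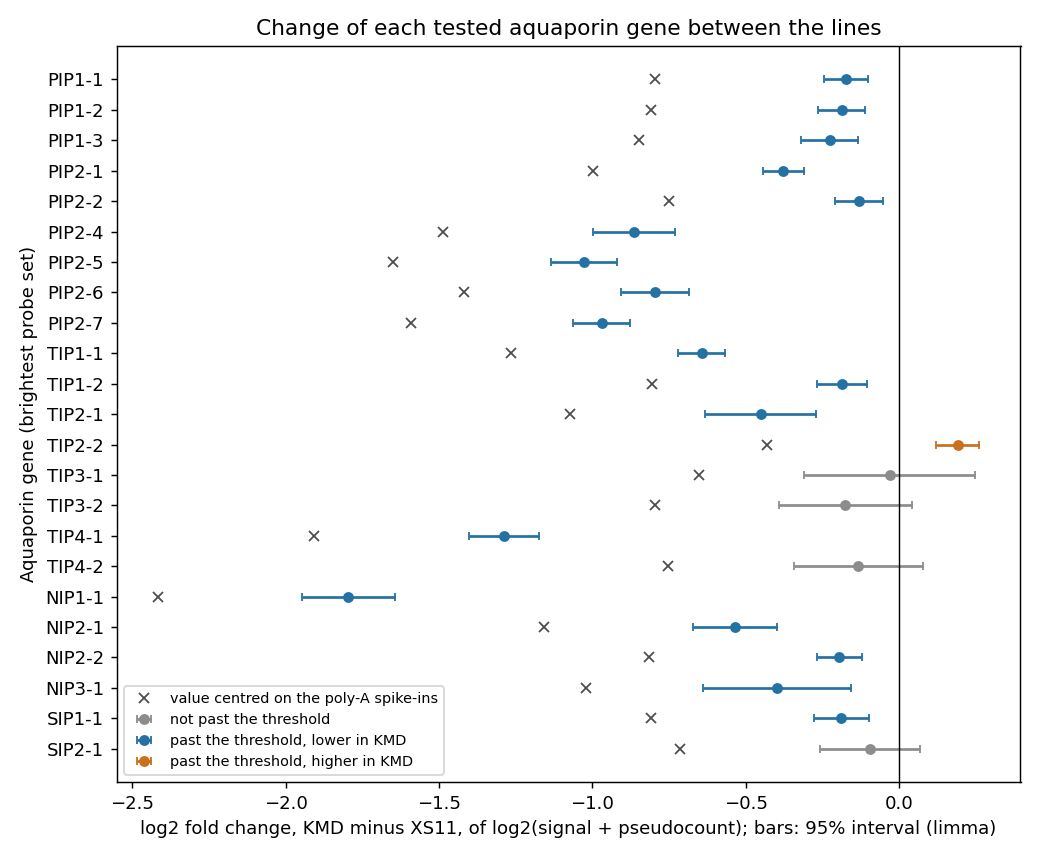
Log2 fold change (KMD minus XS11) of the 23 tested aquaporin genes, with 95% intervals from limma, coloured by call, and crosses for the value after centring on the poly-A spike-ins. NIP1-1 (-1.80) and TIP4-1 (-1.29) lie farthest to the left, and TIP2-2 (0.19) lies right of 0 but moves to -0.43 on the spike-in scale.

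In the tonoplast subfamily, 4 of 8 tested genes fell, 1 rose and 3 did not pass, or 3 of 7 without TIP2-1, where 33.0% of all tested genes fell and 23.2% rose. TIP4-1 read 149, 159 and 161 in KMD, against 387, 387 and 419 in XS11. Its log2 fold change was -1.29 (SE 0.05, limma adjusted p = 5.47e-10), and its KMD mean was 39.3% of the XS11 mean. Only 0.77% of the 14790 tested genes had a lower log2 fold change.

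TIP1-1, a vacuolar water channel, read 3018, 3066 and 2867 in KMD, against 4511, 4721 and 4762 in XS11, a log2 fold change of -0.64 (SE 0.04). TIP1-2, of the same group, averaged 1792 ± 89.6 in KMD and 2038 ± 9.57 in XS11 (SD, n = 3 each), a log2 fold change of -0.19 (SE 0.04). The 95% intervals of these log2 fold changes were -0.72 to -0.57 for TIP1-1 and -0.27 to -0.10 for TIP1-2, so they did not overlap.

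TIP2-2 was the 1 aquaporin gene that rose. It read 1465, 1419 and 1454 in KMD, against 1271, 1267 and 1255 in XS11, a log2 fold change of 0.19 (SE 0.03, limma adjusted p = 0.00033), which turned to -0.43 after centring on the spike-ins. The lines did not overlap. Its probe set is of the type x_at, which can take signal from related transcripts, and it did not pass the test against a change of 1.2-fold. TIP2-1, known in rice mainly from roots, averaged 24.7 in KMD and 37.9 in XS11, a log2 fold change of -0.45 (SE 0.08), and is close to the dim end of the scale.

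TIP3-1 and TIP3-2 belong to the group known from the protein storage vacuoles of seeds. TIP3-1 averaged 47.0 ± 11.3 in KMD and 47.9 ± 7.63 in XS11 (SD, n = 3 each), with a 95% interval of its log2 fold change from -0.31 to 0.25. TIP3-2 stood at -0.18 (95% interval -0.39 to 0.04), and TIP4-2 at -0.13 (95% interval -0.34 to 0.08). The arrays of the lines overlapped in these 3 genes, and the intervals leave room for falls of the size seen in TIP1-2.

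The NIP subfamily held the widest range. NIP1-1, known in rice to be permeable to arsenite, read 40.3, 42.4 and 45.4 in KMD, against 171, 173 and 184 in XS11. Its measured log2 fold change was -1.80 (SE 0.07, limma adjusted p = 3.39e-10). All 3 KMD arrays lay under the level of the brightest reporter probe set in XS11 (63.5), a measure of background given with the dim genes, so the KMD level is not shown to be above background. With that reporter level in place of the KMD values, a setting chosen after seeing the data, NIP1-1 was at least 2.50-fold lower in KMD, a log2 difference of -1.32.

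NIP2-1 is Lsi1, the silicon influx channel of rice roots, and NIP2-2 is Lsi6, which moves silicon out of the xylem in shoots. Lsi1 read 180, 214 and 188 in KMD, against 279, 280 and 298 in XS11, a log2 fold change of -0.53 (SE 0.06, limma adjusted p = 1.34e-05). Lsi6 averaged 3010 ± 115 in KMD and 3444 ± 41.8 in XS11 (SD, n = 3 each), a log2 fold change of -0.19 (SE 0.03). For both Lsi1 and Lsi6 every KMD array read lower than every XS11 array, as in 37.7% of all tested genes. The probe set of Lsi6 is of the type x_at.

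NIP3-1, named DTE1 in the RefSeq table and known as a boron channel, averaged 24.2 ± 0.99 in KMD and 35.8 ± 7.52 in XS11 (SD, n = 3 each). Its log2 fold change was -0.40 (SE 0.11), and its call was lost without XS11 replicate 1 (-0.31, limma adjusted p = 0.054). NIP4-1 was too dim to be tested, at 23.5 in KMD and 23.8 in XS11 on average.

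Of the small SIP channels, SIP1-1 averaged 1111 ± 13.6 in KMD and 1269 ± 71.0 in XS11 (SD, n = 3 each), a log2 fold change of -0.19 (SE 0.04). Its call did not hold after quantile normalization (-0.11, limma adjusted p = 0.052). SIP2-1 averaged 74.1 in KMD and 79.9 in XS11, its arrays overlapped between the lines, and the 95% interval of its log2 fold change ran from -0.26 to 0.07.

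By signal, 11 of the 23 tested genes had a probe set in the upper 5% of all signals, where 10 fell and 1 rose. Among all tested genes in that range, 40.5% fell. The median log2 fold change of the 11 aquaporin genes was -0.19, against -0.04 over all tested genes in that range. The other 12 genes gave 8 falls, with a median of -0.49, where 31.7% of all tested genes below the upper 5% fell with a median of -0.03. Signals of different probe sets do not measure relative transcript amounts, so this grouping describes the probe sets and not which channel is more abundant.

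**Figure D3:**
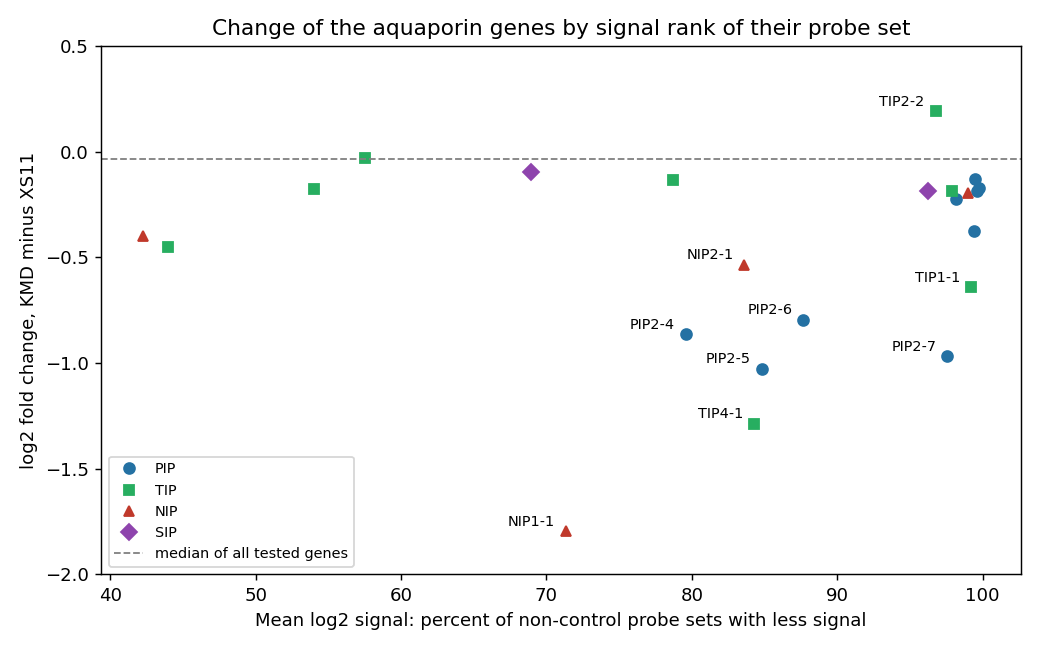
Log2 fold change (KMD minus XS11) of the 23 tested aquaporin genes against the percent of non-control probe sets with less mean log2 signal, by subfamily, with the median of all tested genes (-0.03) as a dashed line. In the upper 5% most points lie near -0.19, with TIP1-1 and PIP2-7 below them and TIP2-2 above 0, and the larger falls of NIP1-1, TIP4-1, PIP2-4, PIP2-5 and PIP2-6 lie to the left of that range.

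For the dim genes, the array's 64 reporter probe sets, made for foreign sequences used in plant transformation, gave a level to compare with in the untransformed parent. Their means in XS11 had a median of 16.5, a 90th percentile of 31.8 and a highest value of 63.5. In 6 aquaporin genes both line means lay under that highest value, namely PIP2-8, TIP2-1, TIP3-1, TIP3-2, NIP3-1 and NIP4-1. The signals of these genes are not shown to be above background, and detection calls were not analysed here. TIP2-1 and NIP3-1 had KMD means under the lowest mean signal tested, 27.7, and passed the filter through their XS11 arrays.

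Several probe sets were at hand for 5 genes. Both probe sets of TIP1-1 fell by the same amount, -0.64. The probe sets of PIP2-2 gave -0.13 for the brighter, of the type s_at, and -0.22 (SE 0.06) for the dimmer, of the type at. The probe sets of PIP2-1 disagreed. The a_at probe set gave -0.42 and the x_at probe set -0.38. The remaining probe set, of the type at, read 41.6, 38.4 and 39.6 in KMD, against 39.8, 37.4 and 36.4 in XS11, with a log2 fold change of 0.06 (95% interval -0.12 to 0.23). That probe set lies under the highest reporter value. The second probe sets of TIP2-1 and TIP4-1 were too dim to be tested, with KMD means of 16.0 and 14.7 and XS11 means of 21.6 and 16.95. Of the falls of at least 0.5 on the log2 scale, those of TIP4-1, NIP1-1, NIP2-1, PIP2-4, PIP2-5, PIP2-6 and PIP2-7 therefore rest on 1 tested probe set each.

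**Figure D4:**
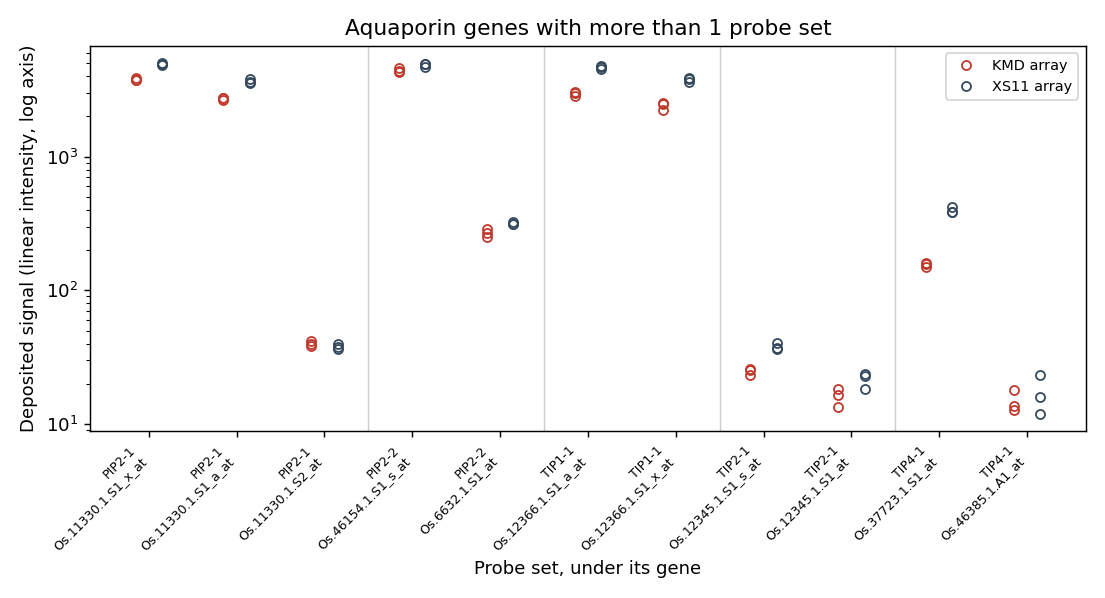
Deposited signal (log axis) in each array for the 11 probe sets of the 5 aquaporin genes with more than 1, KMD left of XS11. The brighter probe sets of PIP2-1, PIP2-2, TIP1-1, TIP2-1 and TIP4-1 show every KMD array under every XS11 array, while the dimmest ones of PIP2-1, TIP2-1 and TIP4-1 overlap.

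Probe sets of the type at, which are made for a single transcript, gave 12 falls among 15 tested. Those of the types a_at, s_at and x_at gave 9 falls and 1 rise among 12. Over all tested probe sets of any type, 21.6% fell and 18.1% rose, and shares by type were not computed. Paralogous PIP and TIP genes are similar in sequence, so values of the types s_at and x_at, which can read related transcripts, may be shared between genes.

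Genes of families linked to water or metalloid transport were read from lists of symbols, and whether these members act on aquaporins was not tested. Of 15 tested calcium-dependent kinase genes, 10 fell, 1 rose and 4 did not pass, with a median log2 fold change of -0.33, where 33.0% of all tested genes fell and 23.2% rose with a median of -0.03. Calcium-dependent phosphorylation opens a PIP aquaporin in spinach. CPK24 (-0.64), CPK7 (-0.59), CPK12 (-0.50) and CPK8 (-0.49) fell most in this list, and CPK1 rose by 0.19, which is less than the shift of the spike-ins. Of 7 genes of 14-3-3 proteins, adaptors that bind phosphorylated proteins such as the plasma membrane proton pump, 3 fell, 2 rose and 2 did not pass, with a median log2 fold change of 0.02. These shares are near those of all tested genes and are not a result about this list. GF14B stood at -0.35, GF14C at -0.30 and GF14F at -0.26, while GF14A rose by 0.25, again less than the shift of the spike-ins.

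Of the guard cell and water loss list, 3 genes were measured, all of them SnRK2 kinases of abscisic acid signalling. SAPK9 rose by 0.33 and SAPK8 by 0.13, both less than the shift of the spike-ins, and SAPK10 stood at -0.22 (limma adjusted p = 0.064). Of the partners of the metalloid channels, LSI2, the silicon efflux transporter that works with Lsi1, was too dim to be tested, at 11.8 in KMD and 14.7 in XS11 on average. No gene of the proton pump list was matched by name.

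The labelled tissue was checked with marker genes. The 6 leaf markers read between 4287 and 16111 as line means, the brightest being RBCS, the small subunit of Rubisco, and their summed signal ran from 55688 to 56103 in KMD and from 58042 to 58576 in XS11. Of 13 root markers, 9 were tested, of which 5 fell and 4 did not pass, against 33.0% of all tested genes that fell. The summed signal of the 13 ran from 2365 to 2468 in KMD and from 3347 to 3426 in XS11. NAAT1, of the synthesis of iron-chelating mugineic acids, led the falls with -1.03, followed by the dimmer AMT1-2 (-0.63) and IRT1 (-0.50). The histidine kinase genes HK5 and HK3 are the other bright members, at -0.36 and -0.37. HK5 averaged 1099 in KMD and 1409 in XS11, NAAT1 465 and 961, and HK3 396 and 514. These genes make up most of the sum. Whether HK5 and HK3 are particular to roots was not tested, so the sum is not a measure of root tissue. Of the 4 that did not pass, NAS2 (0.17), CASP1 (0.12) and NRAMP5 (0.05) had positive values and SCR1 (-0.18) a negative one. CASP1 averaged 52.4 in KMD and 47.4 in XS11, under the highest reporter value of 63.5. The root markers LSI2, IRT2, NAS1 and SHR1 were too dim to be tested in either line. By direction, 6 of the 9 tested root markers had negative values. The part of the lower root marker sum in the falls of Lsi1, PIP2-5 and TIP2-1 was not tested. Of 13 seed or pollen markers, 9 were tested, of which 1 fell, 2 rose and 6 did not pass, where 33.0% of all tested genes fell and 23.2% rose. The 1 that fell, LEA19, passed the filter through its XS11 arrays alone, with means of 15.7 in KMD and 56.2 in XS11. The seed markers GLUA2 (716 in KMD and 530 in XS11) and GLB1 (570 in KMD and 533 in XS11) read far above the highest reporter value. Sums of the 13 ran from 1664 to 1759 in KMD and from 1500 to 1579 in XS11.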

How the data were processed

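Leaf RNA of 3 KMD and 3 XS11 samples was hybridized to Affymetrix rice arrays, and groups follow the sample titles. The authors deposited linear intensity values, 1 per probe set and array, from 1 to 16460, made with MAS5 per the submitters' processing notes. The MAS5 version and the scaling are not stated in the sources at hand, nor is any later step. The number of arrays limits the precision, and no batch is named for them.

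The signal was taken as log2(signal + 11.17) with no further normalization. The 60% of probe sets with the highest mean log2 values, and all reporter probe sets, were fitted with limma (lmFit, eBayes with intensity trend, two-sided, Benjamini-Hochberg over 34404 probe sets), leaving out 123 control probe sets. The fit was tested on simulated data with independent errors and no shift of a whole line, so shifts like that of the spike-ins were not covered. The annotation gave 22436 probe sets 1 gene, 95 several genes and 34850 none. Symbols and gene order came from the RefSeq table, whose positions are not printed because no build is named for the values.

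The members, lists, tests and alternatives were chosen with earlier results of these data known. Every member with a probe set is named. Values per array are given for members called with a log2 fold change of at least 0.5 in size and no overlap, for any that rose, and for those whose probe sets differ in direction. Up to 4 called genes of each related list are named, with the rest given where a list is small. Tests ran in limma 3.58.1 under R 4.3.3, and tables and figures in pandas 2.3.3, numpy 2.4.6 and matplotlib 3.10.9 under Python 3.11.15.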

Additional observations from a re-analysis of the deposited data

Results flagged for a closer look

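The poly-A spike-in probe sets, which were in no comparison of the aquaporin genes, were higher in KMD by 0.6213 on the log2 scale on average over 36 probe sets, with 0.20 and 0.85 as the lowest and highest difference. They stood out because a signal outside the rice genes was above its level in the parent's arrays. With 3 arrays in each line, single arrays were not screened for outlying values.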

How the results depend on the processing

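Over 23 tested aquaporin genes and the settings planned, 400 of 425 values kept their direction and their side of the threshold, 16 lost the call, 4 gained one and 5 turned. Those that turned were TIP2-2, at -0.43 after spike-in centring, PIP2-1 read by its probe set of type at alone (0.057), and TIP3-1, which was not called, without KMD replicate 2 (0.071), KMD replicate 3 (0.020) or XS11 replicate 3 (0.072), with a range of -0.18 to 0.072 over the arrays left out. The 4 gained calls, of SIP2-1, TIP3-1, TIP3-2 and TIP4-2, came from the spike-in centring. That setting called 32924 of all 34404 tested probe sets, 32600 of them lower and 324 higher. It called 23 of 23 aquaporin genes lower, with 0 aquaporin genes and 0 aquaporin probe sets higher, and 24 marker genes in either direction. Limma's test against a change of 1.2-fold called 4102 of 34404 probe sets in all, 2567 lower and 1535 higher. It called 11 of 27 aquaporin probe sets and 9 of 23 aquaporin genes lower, and 0 higher. In either direction it called 4 of 25 related genes and 4 marker genes, where 6 leaf, 9 root and 9 seed or pollen markers were tested. With probe sets of type at alone, 12 aquaporin genes were called lower and 0 higher, as TIP2-2 has none of that type. Quantile normalization turned the lean over all called probe sets, with 6773 lower and 7189 higher, against 7438 lower and 6222 higher without it, and left 16 aquaporin genes lower. Leaving out each array in turn gave 17 to 18 aquaporin genes lower and 1 higher. The pseudocounts, the absent filter, median centring, array weights and the median over a gene's probe sets left 18 lower, the upper 40% of signal left 16 and limma without the trend 17. Deviations of same-numbered arrays correlated at -0.24, -0.0083 and -0.25, and those of other-numbered arrays at -0.058 to 0.32. No pairing by replicate number was seen, but so few arrays cannot exclude one. With the replicate number as a block, 12450 probe sets in all and 18 aquaporin genes lower were called.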
